A study of Arabidopsis thaliana with 6 samples.

Results

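The genes described here encode subunits of the 26S proteasome of Arabidopsis thaliana. They were taken from a list of 40 loci, with 12 genes for alpha subunits and 11 for beta subunits of the 20S core, and 8 genes for RPT and 9 for RPN subunits of the 19S particle. No measured value entered that choice, and the list was drawn up when earlier results from these libraries were known. Reads were found for 40 of the 40 genes among the 18220 nuclear protein-coding genes with assigned poly(A) sites, and 40 also passed the filter on low counts among the 16773 genes tested. They held 390 of the 164115 poly(A) site clusters assigned to genes. RefSeq gave a symbol for 36 of the 40, among them EMB2107 for AT5G09900 and ATS9 for AT1G29150, which are called RPN5A and RPN6 here. The other 4 are AT1G79210 of the alpha group, AT3G26340 of the beta group and AT2G32730 and AT5G23540 of the RPN group, which are named by locus here.

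The libraries were made by 3'READS+, which sequences the fragment next to the poly(A) tail, so that a transcript gives one read at its 3' end whatever its length. RNA came from whole wild-type Col-0 seedlings, 1 to 2 weeks old, grown on plates at 22 °C under constant white light and then kept in darkness for 48 h. The Light group (3 libraries) then received light for 6 h, while the Dark group (3 libraries) stayed in darkness for those 6 h. All 6 libraries therefore share the dark period, and neither group shows the state before it. Nothing in the labels tells if the replicates of a group were grown or extracted apart, so p-values here measure the spread among these libraries, which may be technical.

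The 26S proteasome degrades proteins tagged with ubiquitin. Its 20S core is a barrel in which outer rings of alpha subunits control entry and inner rings of beta subunits hold the proteolytic sites. The 19S particle caps the core: its RPT subunits form a ring of AAA-type ATPases that unfold the substrate, and its RPN subunits bind ubiquitin, remove it and hold the particle together. In plants the system degrades regulators of light signalling, among them phytochrome-interacting factors in the light and positive regulators of photomorphogenesis in darkness, and in Arabidopsis many subunits are encoded by a pair of paralogous genes.

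Library totals were 13.2 to 13.51 M reads in Light and 13.36 to 14.53 M in Dark. Levels are given as normalised read counts per 1000000 reads (CPM), scaled with TMM factors, which assume that most genes did not change. Replicates differed by more than sampling noise, with a chi-square per degree of freedom of 6.48 to 28.7 across genes. Of 14 tissue markers, 9 could be tested, of which 5 were higher and 1 lower in Light. Of all genes tested, 37.4% were higher and 35.6% lower. The summed mesophyll markers (RBCS1A, CA1 and CAB2) lay at 9607 to 10929 CPM in Light and 2828 to 3746 CPM in Dark, and the summed root markers at 6605 to 7772 CPM in Light and 1111 to 2036 CPM in Dark. PYK10 made up nearly all of the root sum (7154 ± 584 CPM in Light against 1623 ± 473 CPM in Dark); SCR was at 9.63 ± 1.003 CPM against 11.3 ± 1.07 CPM and did not pass, TIP2;3 had 2 to 3 reads per Light library and 2 to 15 per Dark library, and COBL9 had no assigned clusters. The 2 epidermis markers summed to 76.6 to 87.7 CPM in Light and 65.3 to 89.4 CPM in Dark, and the single guard cell and phloem markers were below 4 CPM in the 6 libraries. The seed storage genes CRA1, CRU3 and SESA1 had 104, 53 and 89 reads in Light replicate 1 and at most 3 reads each in the other libraries. The part of these differences in the results below was not tested, and in bulk RNA of whole seedlings fewer cells of a type and less RNA per cell cannot be told apart. Without Light replicate 1, the counts of proteasome genes past the gene-level test were the same as with it. Light replicate 3 was the lowest of the Light libraries in 23 of the 40 proteasome genes, against 36.8% of all genes tested.

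The first comparison asked whether the transcript level of proteasome genes differed between seedlings given light and seedlings kept dark. Most of the genes were higher in Light, and most of those by less than 2-fold. With edgeR's quasi-likelihood test and Benjamini-Hochberg adjustment over all genes, 26 of the 40 (65%) were higher in Light, where 37.4% of all genes tested were higher. Only 3 of the 40 (7.5%), PBC1, RPT3 and RPT5A, were lower, where 35.6% of all genes were lower, and the other 11 did not pass. The share called in either direction, 72.5%, was next to the 72.9% of all genes. The median log2 change was 0.48 for the 40 genes and 0.04 for all genes tested. At least 2-fold higher were 8 of the 40 (20%), against 24.5% of all genes. In 27 of the 40 (67.5%) each Light library lay above each Dark library, against 39.1% of all genes, and in 5 (12.5%) each lay below, against 36.6%.

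These directions are relative to the TMM scale. Summed over the 40 genes, proteasome reads made up 0.716% ± 0.0290 (SD, n = 3) of the assigned reads of a Light library and 0.385% ± 0.0109 of those of a Dark library. Scaled to library totals, the median gene of the whole table moved up by 0.45 on the log2 scale, 37 of the 40 proteasome genes were higher and none passed as lower by edgeR's test, with 0 lower at an unadjusted p of 0.05, and RPT3 changed sign. DESeq2 with its own size factors again gave 26 higher and 3 lower. Without Dark replicate 3, RPT2b, RPT5B, EMB2719 and RPN8A no longer passed (adjusted p = 0.105, 0.0510, 0.0562 and 0.0585 in that order), which left 22 higher, and RPT2b was also lost without Light replicate 2 (adjusted p = 0.113).

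**Figure D1:**
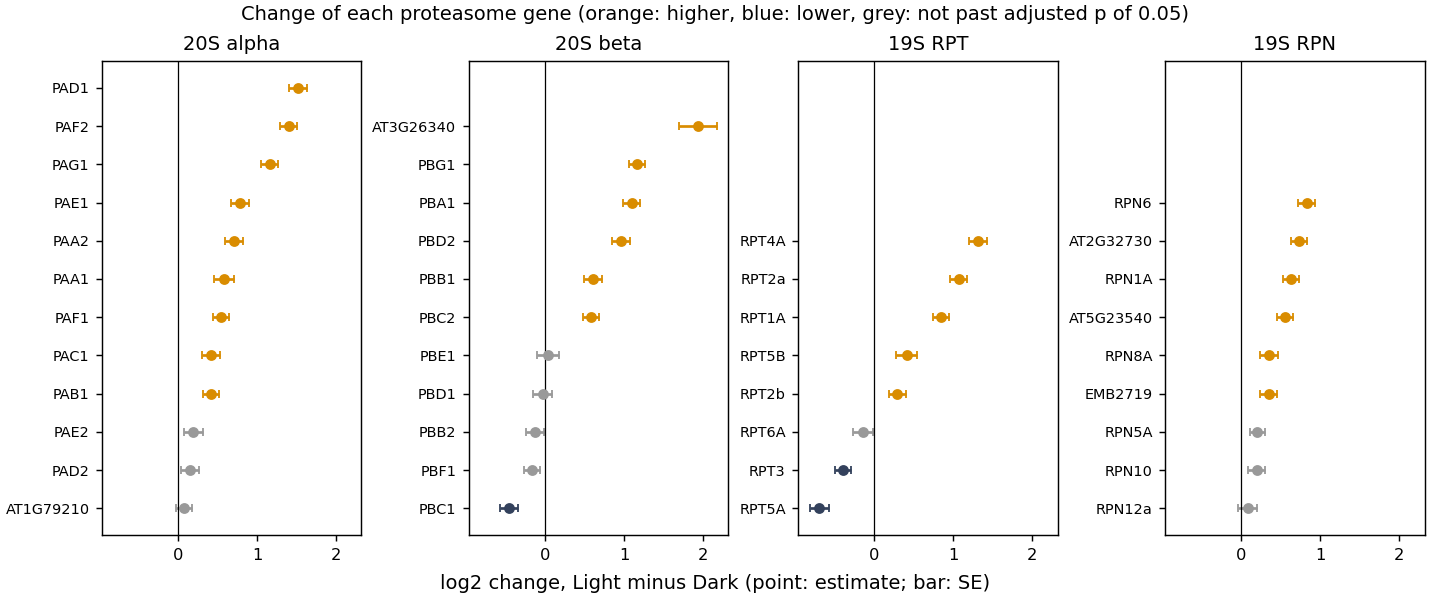
Log2 change, Light minus Dark, of the 40 proteasome genes from edgeR's fit across all genes, with 1 panel for each of the alpha, beta, RPT and RPN groups; points are estimates, bars are SE, orange marks genes higher in Light, blue genes lower and grey genes not past an adjusted p of 0.05. The alpha and RPN panels hold no blue point, and the 3 blue points are PBC1, RPT3 and RPT5A.

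Among the alpha subunit genes, which form the gate of the core, 9 of 12 rose in Light, none fell and 3 did not pass, with a median log2 change of 0.56. For this and the other subunit groups below, the shares of all genes tested were 37.4% higher and 35.6% lower. PAD1 (AT3G51260), an alpha4 gene, was measured at 102, 112 and 91.3 CPM in the Light libraries and 36.8, 33.0 and 36.5 CPM in the Dark libraries. The Light libraries stood clear of the Dark libraries, with Light replicate 3 the lowest of its group. The gene rose 2.87-fold (log2 change 1.52 ± 0.12 SE, adjusted p = 3.20e-08). PAF2 (AT1G47250), one of the genes for alpha6, stood at 209.7, 221 and 217 CPM in the Light libraries and 88.3, 75.5 and 81.7 CPM in the Dark libraries. Its groups were as clearly apart, with a 2.64-fold rise (log2 change 1.40 ± 0.10 SE, adjusted p = 2.94e-08). PAG1 (AT2G27020), the only listed gene for alpha7, had 301, 298 and 257 CPM in the Light libraries and 120.0, 130.4 and 133 CPM in the Dark libraries. It rose 2.23-fold (log2 change 1.16 ± 0.11 SE, adjusted p = 2.75e-07), and again the lowest Light library was above the highest Dark library.

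The other alpha genes that rose did so by less than 2-fold. They were PAA1 (from 14.5 to 21.7 CPM, group means, Dark to Light), PAA2 (from 37.8 to 61.7 CPM), PAB1 (from 55.3 to 73.7 CPM), PAC1 (from 58.3 to 77.8 CPM), PAE1 (from 18.4 to 31.6 CPM) and PAF1 (from 289 to 421 CPM), and in each the Light libraries lay above the Dark libraries. The 3 genes that did not pass were each a paralog of one that rose or, for AT1G79210, the locus grouped here with PAB1. PAD2 was at 86.0 ± 8.75 CPM in Light against 77.4 ± 7.22 CPM in Dark, PAE2 at 48.2 ± 2.21 CPM in Light against 42.2 ± 6.38 CPM in Dark and AT1G79210 at 124 ± 5.33 CPM in Light against 118 ± 8.37 CPM in Dark, and in all 3 the groups overlapped.

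The beta subunit genes were more divided: 6 of 11 rose, PBC1 fell and 4 did not pass, with a median log2 change of 0.58. AT3G26340 had the largest fold of the 40 genes but was also the least read of them, with 25, 46 and 40 reads in the Dark libraries. It stood at 13.4, 13.8 and 9.37 CPM in the Light libraries and 2.19, 4.02 and 3.28 CPM in the Dark libraries, groups that did not overlap, and rose 3.83-fold (log2 change 1.94 ± 0.24 SE, adjusted p = 4.27e-06). PBG1 (AT1G56450), the gene for beta7, a subunit without a proteolytic site of its own, was measured at 284, 290.4 and 298 CPM in the Light libraries and 126, 135 and 128 CPM in the Dark libraries. Replicates were close and the groups far apart, a 2.24-fold rise (log2 change 1.16 ± 0.10 SE, adjusted p = 1.07e-07). PBA1 (AT4G31300), the gene for beta1 with the caspase-like site, was at 289, 287 and 269 CPM in the Light libraries and 129.7, 146 and 119 CPM in the Dark libraries. It rose 2.14-fold (log2 change 1.099 ± 0.11 SE, adjusted p = 5.51e-07) with no overlap between groups.

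PBC1 (AT1G21720), one of the genes for beta3, went the other way. Its libraries gave 113, 90.6 and 87.5 CPM in the Light libraries and 138, 128 and 133 CPM in the Dark libraries. The highest Light library, replicate 1, was below the lowest Dark library, and the gene fell by 0.45 on the log2 scale (SE 0.12, adjusted p = 0.00307, 1.37-fold lower). Its paralog PBC2 rose from 63.8 to 95.4 CPM, as did PBB1 of the trypsin-like beta2 subunit (from 44.4 to 67.6 CPM) and PBD2 of beta4 (from 47.4 to 92.1 CPM). PBB2, PBD1, PBE1 and PBF1 did not pass. PBE1 (AT1G13060), a gene for the chymotrypsin-like beta5 subunit, had 362, 307 and 227 CPM in the Light libraries and 291, 289 and 291 CPM in the Dark libraries. Its Dark libraries were almost equal while its Light libraries spanned both sides of them, and the difference in means was smaller than the spread of the Light group. PBF1 (AT3G60820), the gene for beta6, was at 161 ± 6.26 CPM in Light against 180.4 ± 11 CPM in Dark, with each Light library below each Dark library and an adjusted p of 0.160.

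The ATPase genes of the RPT group went in both directions. Of 8 genes, 5 rose, 2 fell and RPT6A did not pass, with a median log2 change of 0.35. RPT4A (AT5G43010) stood at 54.2, 50.1 and 52.9 CPM in the Light libraries and 19, 21.9 and 22.2 CPM in the Dark libraries, and rose 2.49-fold (log2 change 1.32 ± 0.11 SE, adjusted p = 1.37e-07). RPT2a (AT4G29040) was at 174, 181 and 155 CPM in the Light libraries and 83.2, 84.2 and 76.1 CPM in the Dark libraries, a 2.10-fold rise (log2 change 1.07 ± 0.11 SE, adjusted p = 5.90e-07). RPT1A (AT1G53750), at 422, 408 and 410.1 CPM in the Light libraries and 214, 246 and 229 CPM in the Dark libraries, rose 1.80-fold (log2 change 0.85 ± 0.10 SE, adjusted p = 3.76e-06). In these 3 genes the Light and Dark libraries were separated by a gap wider than either group's range. RPT2b (from 49.4 to 60.5 CPM, Dark to Light) and RPT5B (from 13.3 to 17.7 CPM) rose by less, and both lost the call without Dark replicate 3.

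RPT3 (AT5G58290) was the most read of the 40 genes. It was measured at 398, 396 and 381 CPM in the Light libraries and 513, 519 and 517 CPM in the Dark libraries, with little spread within either group and no overlap. It fell by 0.40 on the log2 scale (SE 0.10, adjusted p = 0.00204, 1.32-fold lower). RPT5A (AT3G05530) had 29.5, 26 and 24.6 CPM in the Light libraries and 41.8, 46.4 and 41.7 CPM in the Dark libraries. The groups did not overlap, and the gene fell by 0.70 on the log2 scale (SE 0.12, adjusted p = 9.68e-05, 1.62-fold lower). RPT6A (AT5G19990) was at 17.5 ± 0.545 CPM in Light against 19.4 ± 1.38 CPM in Dark (adjusted p = 0.298). How the authors treated reads with several genomic matches is not given in the sources used here, so levels of close paralogs are uncertain where their 3' ends are alike. RPT6A lies beside AT5G20000, a listed further subunit gene that rose from 80.8 to 210.1 CPM.

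In the RPN group 6 of 9 genes rose, none fell and 3 did not pass, with a median log2 change of 0.35 and no change of 2-fold or more. RPN6 (AT1G29150), which in yeast clamps the cap to the core, stood at 338, 331 and 290.2 CPM in the Light libraries and 172, 196 and 173 CPM in the Dark libraries. It rose 1.77-fold (log2 change 0.83 ± 0.11 SE, adjusted p = 9.08e-06), and the groups did not overlap. AT2G32730 had 128, 134 and 122 CPM in the Light libraries and 74.7, 78.0 and 78.3 CPM in the Dark libraries, a 1.66-fold rise (log2 change 0.73 ± 0.10 SE, adjusted p = 1.38e-05). RPN1A (AT2G20580), whose yeast counterpart is a docking scaffold for ubiquitin-like domains, was at 257, 221 and 257 CPM in the Light libraries and 149.9, 159 and 166 CPM in the Dark libraries and rose 1.55-fold (log2 change 0.63 ± 0.11 SE, adjusted p = 9.92e-05). In both genes the lowest Light library was well above the highest Dark library.

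AT5G23540 (from 237 to 348 CPM, Dark to Light), RPN8A (from 27.1 to 34.6 CPM) and EMB2719 (AT1G20200, from 130.5 to 166 CPM) also rose. RPN10 (AT4G38630), a ubiquitin receptor, was at 178 ± 15.8 CPM in Light against 156 ± 11.1 CPM in Dark, and its groups overlapped (adjusted p = 0.118). The lid subunit gene RPN5A was at 136 ± 5.37 CPM in Light against 118 ± 2.46 CPM in Dark (adjusted p = 0.0772), with no overlap. RPN12a, another lid subunit gene, was at 272 ± 39.9 CPM in Light against 257 ± 11.4 CPM in Dark, where Light replicate 3 at 226 CPM lay below the Dark libraries and the other Light libraries above them.

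**Figure D2:**
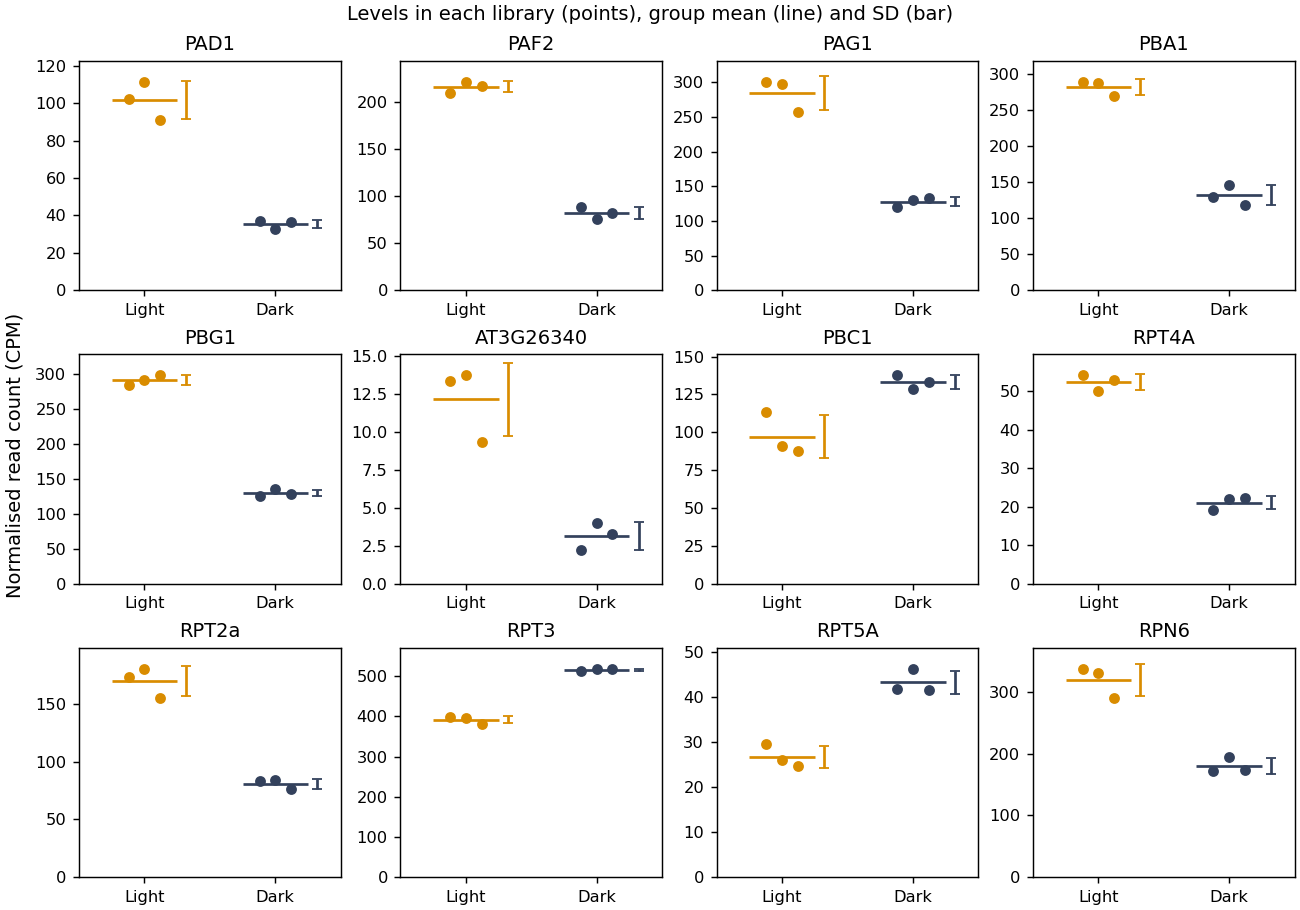
Normalised read count in CPM of 12 proteasome genes in each library, with Light in orange and Dark in blue; points are libraries, lines are group means, bars are SD over 3 libraries, and each vertical axis starts at 0. PBC1, RPT3 and RPT5A are the panels in which the Dark points lie above the Light points.

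Reads were summed over the listed genes of each group. The further subunit genes described below were not added, so the sums compare parts of the list and not of the whole particle. The alpha genes summed to 1549 ± 80.1 CPM (SD, n = 3) in Light and 956 ± 34.5 CPM in Dark, a ratio of 1.62 ± 0.102. For the beta genes the sums were 1593 ± 113 CPM and 1232 ± 29.6 CPM, a ratio of 1.29 ± 0.0972. The RPT genes gave 1150.4 ± 26.1 CPM and 974 ± 23.6 CPM, a ratio of 1.18 ± 0.0392, and the RPN genes 1828 ± 78.7 CPM and 1341 ± 54.5 CPM, a ratio of 1.36 ± 0.0806. The alpha sum had thus the highest ratio and the RPT sum the lowest. These ratios were not tested against each other, since the genes were chosen with earlier results known.

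Because a transcript end gives one read, the reads of paralogs can be added to a level for each position in the 20S rings, where one copy of each subunit is needed per ring. The sums were uneven in the alpha ring. In Light they ran from 77.8 CPM for PAC1, the only listed alpha3 gene, to 637 CPM for PAF1 with PAF2, an 8.19-fold range. In Dark they ran from 52.3 CPM for PAA1 with PAA2 to 371 CPM for the PAF genes, a 7.10-fold range. The beta positions were more alike, between 161 CPM (PBF1) and 311 CPM (PBE1 with AT3G26340) in Light, a 1.93-fold range, and between 129.6 CPM (PBG1) and 293 CPM in Dark, a 2.26-fold range.

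Some positions moved little although their genes moved. The PBC pair summed to 206, 189.7 and 181 CPM in Light and 201, 192 and 198 CPM in Dark, overlapping groups, since PBC1 fell while PBC2 rose. The RPT5 pair, where RPT5A fell and RPT5B rose, summed to 46.4, 43.6 and 43.2 CPM in Light and 55.4, 59.8 and 54.8 CPM in Dark. There the fall of the more read gene was not matched, and the Light sums stayed below the Dark sums. Positions read from a single listed gene ranged widely. RPT4A (ratio of means, Light over Dark, 2.49), PBG1 (2.24), PAG1 (2.23) and PBA1 (2.14) were above 2, whereas PAC1 was at 1.33, RPN12a at 1.06, PBF1 at 0.893 and RPT3 at 0.759. Further subunit genes, described below, were not added, so these ratios are of the named gene and not always of its position. For RPT4 the further gene is AT1G45000, more read than RPT4A, at 76.0 CPM in Light against 48.5 CPM in Dark. For alpha3 it is AT4G15165, at 3.33 CPM against 0.65 CPM.

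**Figure D3:**
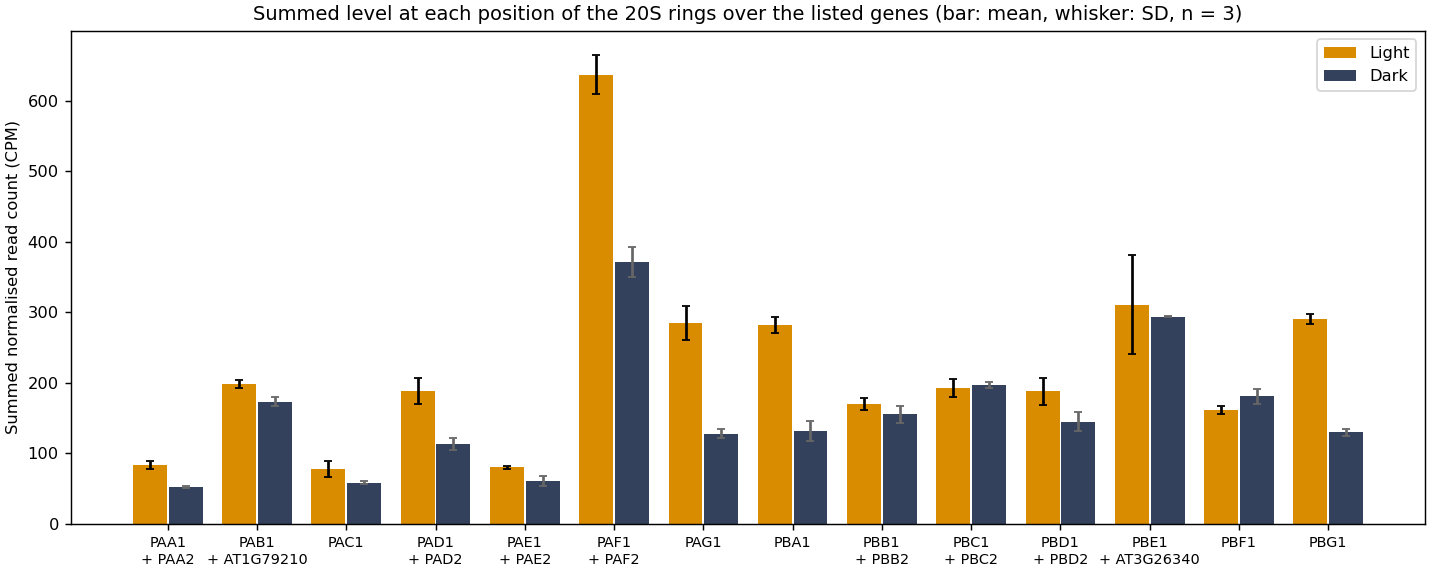
Summed normalised read count in CPM at the 14 positions of the 20S rings, alpha on the left and beta on the right, named by the listed genes added; bars are means over 3 libraries in Light (orange) and Dark (blue), starting at 0, and whiskers are SD. The PAF bars are the tallest in both groups, and the PBC bars are level between groups.

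Within paralog pairs the question was which gene gave the reads. Of the 11 pairs, 8 had a single gene that rose in Light and 3 (PAA, PAF and RPT2) had both. That split holds on the TMM scale only. Scaled to library totals, AT1G79210, PAD2, PAE2, PBB2, PBD1 and PBE1 also passed as higher, whereas PBC1 and RPT5A did not. The share of the first-named gene in the pair's reads did not overlap between groups in 10 pairs, and PAA was the exception. Pairs were not formed for other genes, so that count has no background of its own; for gene levels, the Light libraries lay wholly above the Dark libraries in 39.1% of all genes and wholly below in 36.6%. The exact permutation test over libraries (two-sided) gave p = 0.1 for each of those 10, which is the smallest p that 3 against 3 libraries allow, so none could pass 0.05. PAB1 with AT1G79210 and PBE1 with AT3G26340 are groupings made for this work.

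Among the pairs formed here, the PAD pair moved most in percentage points, by 22.7. On the log2 scale the PBE pair did, with a difference between its genes' log2 changes of -1.90 against 1.37 for PAD. Further subunit genes, described below, were not paired. Their log2 changes ran from -2.49 to 2.33, so pairs with larger shifts may be missing from this ranking. PAD1 held 55.6, 53.7 and 53.3% in the Light libraries and 30.2, 30.3 and 33.9% in the Dark libraries. It went from 31.5% ± 2.13 in Dark to 54.2% ± 1.21 in Light, from the less read to the more read gene of the pair. PBC1 held 54.9, 47.7 and 48.2% in the Light libraries and 68.5, 66.8 and 67.3% in the Dark libraries, and its share dropped to about that of PBC2 in Light, from 67.5% ± 0.897 in Dark to 50.3% ± 4.02 in Light. PBD1, which in Dark led its pair, held 51.3, 50.7 and 50.6% in the Light libraries and 69.0, 66.8 and 65.7% in the Dark libraries. The libraries of each group were close to each other, and the mean share went from 67.2% ± 1.69 in Dark to 50.9% ± 0.388 in Light. RPT5A held 63.6, 59.7 and 57.0% in the Light libraries and 75.5, 77.6 and 76.2% in the Dark libraries, and stayed the more read gene while its share went from 76.4% ± 1.08 in Dark to 60.1% ± 3.35 in Light.

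The other pairs shifted by fewer percentage points. RPT2a, already the more read gene of its pair, held 75.7, 73.4 and 72.2% in the Light libraries and 61.8, 63.5 and 61.2% in the Dark libraries, and went from 62.2% ± 1.15 in Dark to 73.8% ± 1.77 in Light. PAF1 held 67.1, 66.7 and 64.4% in the Light libraries and 77.6, 78.6 and 77.7% in the Dark libraries. It went from 78.0% ± 0.534 in Dark to 66.1% ± 1.47 in Light, since PAF2 rose by more than PAF1. PBB1 held 36.6, 42.4 and 41.1% in the Light libraries and 28.7, 31.1 and 26.3% in the Dark libraries, and went from 28.7% ± 2.38 in Dark to 40.03% ± 3.06 in Light. PAE1 held 37.8, 40.7 and 40.4% in the Light libraries and 27.7, 32.2 and 31.7% in the Dark libraries, and went from 30.5% ± 2.49 in Dark to 39.6% ± 1.61 in Light. Both stayed the less read gene of their pair. PAB1 held 37.3, 35.5 and 38.9% in the Light libraries and 29.2, 33.1 and 33.7% in the Dark libraries, and went from 32% ± 2.46 in Dark to 37.2% ± 1.68 in Light. PBE1 held 96.4, 95.7 and 96.0% in the Light libraries and 99.3, 98.6 and 98.9% in the Dark libraries. It went from 98.9% ± 0.315 in Dark to 96.1% ± 0.363 in Light, so AT3G26340 remained a small portion of its pair in both groups. In the PAA pair both genes rose by a similar factor, and PAA1 held 27.9, 26.4 and 23.9% in the Light libraries and 27.2, 28.2 and 27.8% in the Dark libraries, overlapping groups (exact permutation test, p = 0.3).

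**Figure D4:**
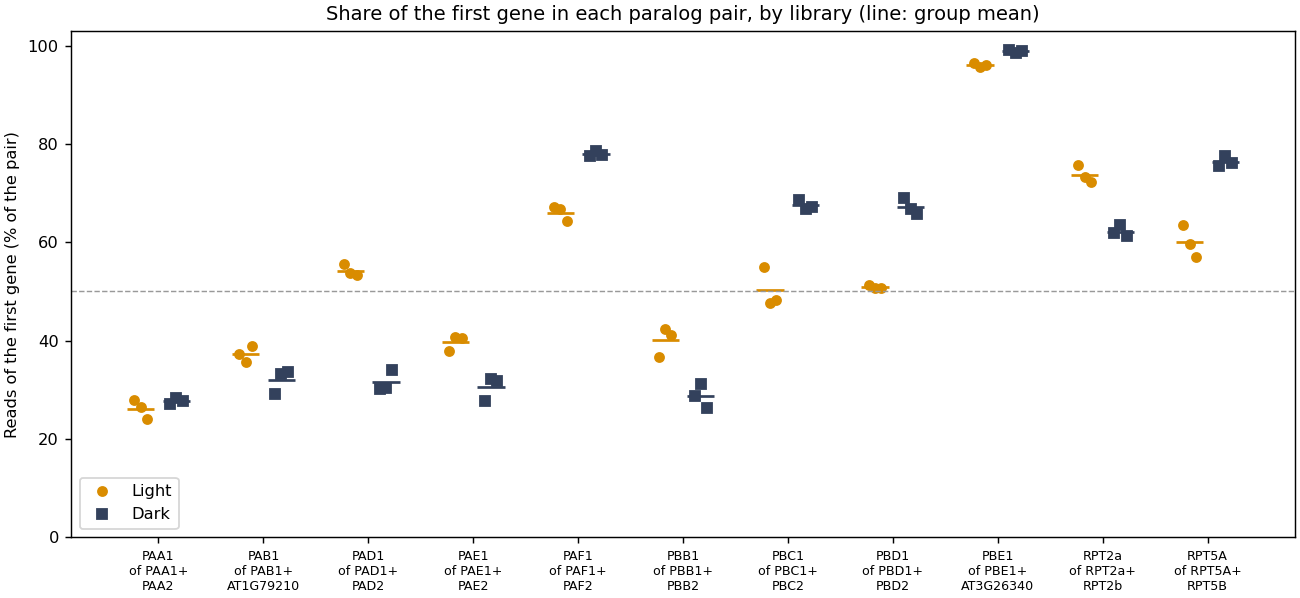
Share of the first-named gene in the reads of each of 11 paralog pairs, in percent, for each Light (orange circles) and Dark (blue squares) library; lines are group means, and the dashed line marks equal reads of both genes. PAD1 lies below the dashed line in the Dark libraries and above it in the Light libraries, and PAA is the pair in which the groups overlap.

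The next comparison asked whether light changed which poly(A) site of a proteasome gene was used. The table gives sites as clusters of read ends, with coordinates on TAIR10 per the submitters' processing notes; no exon or untranslated region is given with them, so sites are placed by gene only. A gene had 6 to 21 clusters (median 9), most of them rarely used. With a site counted when it held 5% or more of its gene's reads, 10 genes had a single site, 13 had 2 and 17 had 3 or more. The most used site held 35.9% (PAF1) to 99.9% (RPN1A) of a gene's reads, with a median of 70.6%. Each of the 40 genes had under 1% of its reads more than 400 nt upstream of its most used site, the highest being 0.751% in AT3G26340. By reads summed over each group, that gene was also the only one whose most used site differed between groups. It was position 9650457 on chromosome 3 in Dark and 9650422, 35 nt downstream on the minus strand, in Light. In Light replicate 3, however, position 9650457 still held more of the gene's reads, 47.9% against 43.2% at 9650422.

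Site use was tested in the 30 genes with at least 2 such sites. By edgeR's diffSpliceDGE with Simes' method and Benjamini-Hochberg adjustment, it changed in 14 of the 30 (46.7%), against 25.7% of all genes tested. The proteasome genes were also more deeply read, with a median of 10097 reads per gene against 1618 over all genes tested, and the part of read depth in the higher share was not tested. The 6 genes that passed also without each library in turn were PAE1, PBC1, PBF1, RPN8A, RPT2b and RPT5A. The other 8 were lost without at least 1 library, and the count was 8 without Light replicate 1, 7 without Light replicate 2 and 7 without Dark replicate 3.

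Direction was read from the 2 most used sites of each gene, as the change in distal over proximal reads. Of 30 genes, 11 (36.7%) moved to the distal site in Light, against 23.3% of all genes, and 3 (10%), AT1G79210, RPN5A and RPN8A, moved to the proximal site, against 7.54%. Here too the proteasome genes were more deeply read, with a median of 10097 reads per gene against 1310 over all genes in this test. The part of read depth in these shares was not tested. The median log2 change was 0.23, against 0.24 over all genes tested, so the size of the typical shift was that of the whole table. The paired sites lay 27 to 130 nt apart, with a median of 35 nt against 50 nt for all genes, and 24 of the 30 pairs were closer than 50 nt. When clusters within 50 nt were joined, a setting added after the data were seen, RPN8A was the only one of the genes that could still be tested.

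By the log2 change of the distal to proximal ratio, PBC1 showed the largest shift to the distal site. In percentage points several genes moved further to it, AT3G26340 and RPT5A the most. PBC1 has its sites close together (chromosome 1, positions 7628225 and 7628262 on the plus strand). Its distal site held 10.9, 9.97 and 9.12% of the pair's reads in the Light libraries and 2.92, 2.83 and 3.12% in the Dark libraries. Both groups were tight and far apart, and the distal share went from 2.96% ± 0.147 in Dark to 10.01% ± 0.909 in Light (log2 change 1.87 ± 0.18 SE, adjusted p = 1.54e-13). In PBF1 (chromosome 3, positions 22471832 and 22471769 on the minus strand) the distal site held 9.48, 8.40 and 10.00% of the pair's reads in the Light libraries and 3.45, 3.73 and 2.73% in the Dark libraries, no overlap, and went from 3.30% ± 0.515 in Dark to 9.30% ± 0.816 in Light (log2 change 1.59 ± 0.16 SE, adjusted p = 7.93e-13). The proximal site stayed the main one in both genes. In RPT5A (chromosome 3, positions 1606131 and 1606198 on the plus strand) the distal share was higher at the outset, with 41.0, 41.4 and 44.5% of the pair's reads in the Light libraries and 21.3, 21.6 and 22.5% in the Dark libraries. It went from 21.8% ± 0.621 in Dark to 42.3% ± 1.92 in Light (log2 change 1.39 ± 0.22 SE, adjusted p = 2.46e-07). PBC1 and RPT5A are also 2 of the 3 genes whose level fell in Light, while the level of PBF1 did not pass the test.

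AT3G26340 was the gene with the change of main site in summed reads. Its distal share went from 30.1% ± 3.69 in Dark to 56.8% ± 9.15 in Light (log2 change 1.59 ± 0.42 SE, adjusted p = 0.00185), on at least 23 reads per library. The distal site held 65.6, 57.3 and 47.4% of the pair's reads in the Light libraries and 26.1, 31.0 and 33.3% in the Dark libraries, with no overlap between groups, and the diffSpliceDGE test did not pass (adjusted p = 0.0775). PAD1, with sites 120 nt apart, went from 63.0% ± 5.99 in Dark to 74.7% ± 1.91 in Light (log2 change 0.80 ± 0.19 SE, adjusted p = 4.14e-04). Its distal site held 76.6, 72.8 and 74.7% of the pair's reads in the Light libraries and 60.1, 69.9 and 59.0% in the Dark libraries.

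PBB2, RPN6, RPN10, RPT2a, RPT2b and RPT4A also moved to the distal site. The distal site of PBB2 held 10.2, 10.1 and 7.24% of the pair's reads in the Light libraries and 5.49, 5.13 and 5.54% in the Dark libraries (log2 change 0.83 ± 0.18 SE, adjusted p = 1.77e-04). That of RPN6 held 18.6, 20.8 and 20.9% in Light and 14.0, 15.7 and 14.2% in Dark (log2 change 0.55 ± 0.13 SE, adjusted p = 4.39e-04). In RPN10 the values were 36.4, 34.7 and 29.1% and 26, 25.6 and 24.4% (log2 change 0.56 ± 0.14 SE, adjusted p = 7.10e-04). In these 3 genes each Light library lay above each Dark library. For RPT2a the distal site held 51.0, 49.4 and 46.2% in Light and 45.4, 40.6 and 42.1% in Dark (log2 change 0.36 ± 0.14 SE, adjusted p = 0.0417). RPT2b had 36.6, 34.7 and 29.4% and 23.1, 26.6 and 24% (log2 change 0.63 ± 0.18 SE, adjusted p = 0.00412). RPT4A had 42.7, 40.1 and 42.6% and 38.2, 26 and 24.1% (log2 change 0.83 ± 0.24 SE, adjusted p = 0.00468), with Dark replicate 1 nearest to the Light libraries. RPT2a lost this call when any 1 of 4 libraries was left out, and RPT4A lost it without Dark replicate 3. PBC1 and PBB2 passed without each of the other 5 libraries, but their pairs were not tested without Light replicate 1. The other 10 genes passed without each library in turn.

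Of the 3 genes that moved to the proximal site, AT1G79210 (chromosome 1, positions 29796148 and 29796094 on the minus strand) went from 42.7% ± 2.15 in Dark to 31.2% ± 2.45 in Light at its distal site (log2 change -0.72 ± 0.14 SE, adjusted p = 2.36e-05). Its libraries gave 32.4, 28.4 and 32.7% in Light and 43.6, 44.2 and 40.2% in Dark. RPN5A, with 31 nt between its sites, had 82.0, 82.2 and 81.7% at the distal site in Light and 86.3, 88.8 and 87.2% in Dark, and went from 87.4% ± 1.31 in Dark to 81.9% ± 0.258 in Light (log2 change -0.62 ± 0.15 SE, adjusted p = 4.85e-04). In both genes the libraries of the groups did not overlap.

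RPN8A (AT5G05780), which encodes a partner of the deubiquitinating subunit in the lid, had the smallest adjusted p of the site usage test (adjusted p = 2.95e-08, diffSpliceDGE) and a pattern over 5 sites on the plus strand of chromosome 5. The main site of Dark, position 1738489, held 39.3, 39.8 and 36.0% of the gene's reads in Light and 71.3, 68.4 and 68.2% in Dark. It stayed the most used site in both groups, but its share went from 69.3% ± 1.76 of the gene's reads in Dark to 38.4% ± 2.05 in Light. The most distal site, position 1738630, held 12, 12.6 and 13.5% of the gene's reads in Light and 1.27, 1.27 and 4.09% in Dark, and went from 2.21% ± 1.63 of the gene's reads in Dark to 12.7% ± 0.759 in Light. The whole gene had 314, 316 and 318 reads in the Dark libraries, so the Dark share of this site rests on few reads. Upstream of the main site, position 1738427 went from 4.54% ± 0.185 of the gene's reads in Dark to 11.2% ± 0.524 in Light and position 1738385 from 2.53% ± 0.310 of the gene's reads in Dark to 8.05% ± 1.11 in Light. Reads thus moved away from the main site in both directions. The direction of the call followed from the sites paired: the 2 most used sites, 130 nt apart, moved to the proximal one (log2 change -1.16 ± 0.23 SE, adjusted p = 4.07e-05), while with clusters within 50 nt joined the pair was 1738489 and 1738630, 141 nt apart, and the distal share went from 3.58% ± 2.35 in Dark to 18.2% ± 2.17 in Light (log2 change 2.57 ± 0.31 SE, adjusted p = 3.06e-15).

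Some genes changed site use outside the main pair. In PAE1 the site at position 20103880 of chromosome 1, the most distal of 3 on the minus strand, held 12.7, 9.94 and 13.2% of the gene's reads in Light and 2.35, 3.06 and 6.38% in Dark, going from 3.93% ± 2.15 of the gene's reads in Dark to 12% ± 1.77 in Light. PAE1 had 213, 196 and 235 reads in the Dark libraries, so this Dark share also rests on few reads. In RPT3 the most proximal of 3 sites, position 23571234 of chromosome 5, held 15.0, 13.1 and 12% of the gene's reads in Light and 19.8, 20.5 and 18.9% in Dark, going from 19.8% ± 0.773 of the gene's reads in Dark to 13.4% ± 1.53 in Light. In PBC2 the site at position 29098407 of chromosome 1, on the plus strand, held 7.78, 7.82 and 8.26% of the gene's reads in Light and 4.44, 6.18 and 3.55% in Dark, going from 4.73% ± 1.34 of the gene's reads in Dark to 7.96% ± 0.264 in Light (gene-level adjusted p = 0.0289, diffSpliceDGE), a call that was lost when any 1 library other than Dark replicate 2 was left out. In each of these 3 genes the groups did not overlap.

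**Figure D5:**
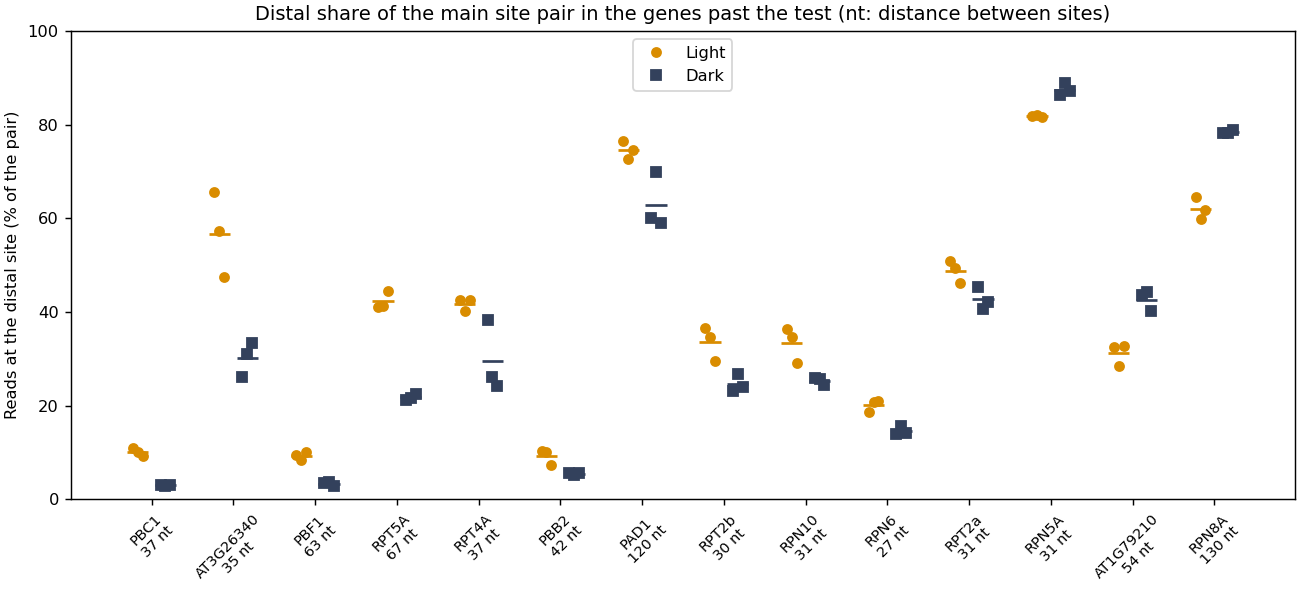
Share of the distal site in the reads of the 2 most used poly(A) sites, in percent, for the 14 proteasome genes past the pair test, by library; Light is in orange circles, Dark in blue squares, lines are group means, and the distance between the sites is given in nt under each gene. Orange lies above blue in 11 genes and below it in AT1G79210, RPN5A and RPN8A.

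Genes of the same pathway were read from lists set up for the comparison, also with earlier results known. Of 16 further subunit genes, 15 were tested, of which 8 were higher, 2 lower (13.3%, against 35.6% of all genes) and 5 did not pass. Their median log2 change was 0.50, against 0.04 for all genes tested. RefSeq names 6 of the 16 as proteasome or DSS1 genes, and the other 10 stand here by locus or by another symbol. AT5G20000 rose to 210.1 CPM (log2 change 1.38 ± 0.11 SE, adjusted p = 4.47e-08), and RPN1B, the paralog of RPN1A, was at 86.7 ± 6.78 CPM in Light against 71.6 ± 5.12 CPM in Dark (log2 change 0.28 ± 0.11 SE, adjusted p = 0.0344). The falls were AT1G53780, at 20.1 ± 3.42 CPM in Light against 113 ± 6.18 CPM in Dark (log2 change -2.49 ± 0.13 SE, adjusted p = 1.02e-09), and DSS1(I), a gene for the smallest lid subunit, at 178 ± 7.69 CPM in Light against 284 ± 39.96 CPM in Dark (log2 change -0.67 ± 0.12 SE, adjusted p = 1.32e-04). The share of the tested further subunits that was higher, 53.3%, lay between the 65% of the 40 genes and the 37.4% of all genes, and the fall of AT1G53780 was larger than any among the 40 genes.

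Of 9 listed regulators and assembly factors, 8 were tested, of which 1 was higher (12.5%, against 37.4% of all genes), 2 lower (25%, against 35.6%) and 5 did not pass. NAC053, which together with ANAC078 activates proteasome genes when the proteasome is inhibited, fell, at 21.2 ± 1.71 CPM in Light against 36.7 ± 4.51 CPM in Dark (log2 change -0.79 ± 0.13 SE, adjusted p = 7.16e-05). ANAC078 was at 139.6 ± 19 CPM in Light against 128 ± 4.50 CPM in Dark (log2 change 0.13 ± 0.12 SE, adjusted p = 0.329), which did not pass. PA200, a proteasome activator, was at 23.4 ± 3.31 CPM in Light against 18.3 ± 3.60 CPM in Dark (log2 change 0.35 ± 0.16 SE, adjusted p = 0.0648). Neither transcription factor gene thus passed as higher in Light.

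The 14 ubiquitin and shuttle genes were split, with 7 higher (50%, against 37.4% of all genes), 6 lower (42.9%, against 35.6%) and 1 not past the test. The share called in either direction was 92.9%, against 72.9% of all genes. The polyubiquitin gene UBQ3 fell most, at 142 ± 8.94 CPM in Light against 1679.7 ± 252 CPM in Dark (log2 change -3.56 ± 0.13 SE, adjusted p = 4.59e-11), and UBQ10, the most read gene of the list, also fell, at 6506 ± 449.9 CPM in Light against 13649.9 ± 2495 CPM in Dark (log2 change -1.07 ± 0.14 SE, adjusted p = 8.80e-06). UBQ4 fell too (log2 change -0.62 ± 0.18 SE, adjusted p = 0.00578). UBQ14 rose (log2 change 0.74 ± 0.11 SE, adjusted p = 3.91e-05), and UBQ11 also passed as higher (log2 change 0.43 ± 0.16 SE, adjusted p = 0.0219), although its groups overlapped, with Light replicate 3 at 408 CPM and Dark replicate 2 at 457 CPM. Polyubiquitin genes hold near-identical repeats. Among genes for shuttle receptors, which carry ubiquitinated proteins to the proteasome, paralogs differed in direction. RAD23B rose, with a log2 change of 0.79, while RAD23C fell, at 24.2 ± 1.20 CPM in Light against 114 ± 1.94 CPM in Dark (log2 change -2.23 ± 0.11 SE, adjusted p = 3.57e-10). DSK2a rose (log2 change 0.42) and DSK2b fell (log2 change -1.35). CDC48A, a segregase that extracts ubiquitinated proteins, fell, at 437 ± 75.0 CPM in Light against 986 ± 77.7 CPM in Dark (log2 change -1.17 ± 0.13 SE, adjusted p = 1.62e-06), and both genes of the ubiquitin-activating enzyme, UBA1 and UBA2, rose, with log2 changes of 0.73 and 1.26.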

How the data were processed

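The members, the lists and the tests were chosen with earlier results of these data known. The deposited values are raw read counts per poly(A) site cluster and library, whole numbers per the file headers and values. The submitters' processing notes name Bowtie2 and TAIR10; how reads were clustered and how multiple matches were handled is not given in the sources used here. Gene names and spans came from a RefSeq table on TAIR10.1, whose coordinates are not printed. A gene's strand was inferred from reads at its ends (at least 20 reads, 90% on 1 strand), and clusters on that strand, in the gene or up to 200 nt past it, were summed, which took in 97.1% of reads. Clusters shared by genes or within 50 nt of small RNA genes were left out. Of the proteasome genes, PBB1 lost 1 read to a shared cluster.

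Counts were fitted with edgeR 4.0.16 (R 4.3.3; TMM factors, filterByExpr with minimum count 10 and total 15, quasi-likelihood F-test, group as the only term), with Benjamini-Hochberg adjustment over all genes at a threshold of 0.05. SE is the log2 change over the root of F. Site usage used diffSpliceDGE with Simes' method on clusters with at least 5% of a gene's reads, and site pairs a site by group interaction with library as a factor. Values in each library were given for the 3 largest rises and falls called in each subunit group, for the share in paralog pairs and for genes called in a site test. The tests were also run on simulated counts in which few genes changed, evenly in both directions. That setting differs from these data and does not check the scaling. DESeq2 1.42.0 and other filters, scalings and left-out libraries were alternatives.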

Additional observations from a re-analysis of the deposited data

How the results depend on the processing

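With RLE factors, DESeq2, no filter, a minimum count of 50, and 0 or 500 nt past the gene end, 26 to 28 proteasome genes were higher and 3 lower. Leaving out 1 library at a time gave 22 to 26 higher and 3 lower. Scaling to library totals, which moves the median of all genes by 0.45 (log2), gave 37 higher and 0 lower, and 68.3% of all calls higher against 51.2%. PBB2 (0.33), PBD1 (0.42), PBF1 (0.29), RPT3 (0.06) and RPT6A (0.31) then changed sign (log2 change), and PBC1 (-0.00) and RPT5A (-0.24) lost the call. Summed ratios became 2.21 (alpha), 1.77 (beta), 1.62 (RPT), 1.87 (RPN) and 1.86 (all 40 genes, from 1.36). Site usage changed in 8 genes at a minimum share of 10%, 22 at 1% and 1 with clusters within 50 nt joined (514 of all genes, from 2849), which left 1 gene to test. Leaving out 1 library gave 7 to 14. With that joining the pair test gave 1 gene distal and 0 proximal; leaving out 1 library gave 8 to 12 distal and 3 to 5 proximal. Deviations of same-numbered libraries correlated at 0.051, 0.006 and 0.056, and those of differently numbered ones at -0.056 to 0.009. The labels do not say if the numbers pair libraries, and such low correlations cannot decide it. With the replicate number as a block, 26 genes were higher and 3 lower, 14 changed site usage, and 11 pairs moved distal and 3 proximal. No paralog share moved by more than the spread between replicates without any 1 library. Over whole genes, read depth limits AT3G26340 most, with 25 to 46 reads per Dark library.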

Other observations

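In 9 of the 11 paralog pairs, the gene with fewer reads in Dark held a larger share of the pair in Light, with PAA and RPT2 as the exceptions. The count was made after the shares were seen and was not tested. Picking the gene by its low Dark share favours a gain, and pairs were not formed for further subunit genes or for other genes.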
